A study of Mus musculus with 8 samples.

Results

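The 10 heat shock chaperone genes Hspa1a, Hspa1b, Hspa8, Hsph1, Hspb1, Hsp90aa1, Hsp90ab1, Dnajb1, Hspd1 and Hspe1 were taken by symbol from a table of 35199 genes, and all 10 were present. They were read in tuft cells, rare chemosensory cells of the gut epithelium, sorted from Dclk1-DTR-ZSgreen mice, whose BAC transgene puts a diphtheria toxin receptor and a green fluorescent protein under the control of Dclk1. Mice aged 8 to 10 weeks received scopolamine, a nonselective blocker of muscarinic acetylcholine receptors, at 0.5 mg per kg per day from an osmotic pump for 7 days (n = 4), or sodium chloride in the same way (sham, n = 4). Both groups carried the transgene, which was made in CBA x C57BL/6J oocytes and backcrossed to C57BL/6J. Each library was made by bulk RNA-seq from 3000 or 4000 live ZSgreen-positive cells of 1 mouse, sorted through a gate that the methods name EPC-high, in a study that worked in the jejunum, and cells of other types that carried the label or passed the gate would be counted with the tuft cells.

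Heat shock proteins are chaperones that hold, fold or refold other proteins. Cells keep constitutive members such as HSC70 (Hspa8) and HSP90-beta (Hsp90ab1) at high levels at all times, and add inducible members such as HSP70 (Hspa1a, Hspa1b) when proteins misfold under heat, oxidation or poisoning. Induction runs mainly through the transcription factor HSF1, which binds heat shock elements, short inverted repeats of the unit GAA in the promoters of its targets. Enzymatic and mechanical dissociation of tissue is known to raise several of these genes along with immediate early genes such as Fos. For these cells the methods describe EDTA chelation, a warmed incubation in culture medium and mild passage through a needle, and name no enzyme. In sorted cells the level of these genes can reflect the animal, the preparation or both, and these cannot be told apart here.

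The promoter windows of the members were searched for such elements because many of these genes are known HSF1 targets and the choice of members did not use their sequence. In the RefSeq promoter table of GRCm38.p6, 7 of the 10 members had an entry, and Hspa8, Hsp90aa1 and Hsp90ab1 had none. Within the 250 bases before the start site of an entry, 6 of these 7 genes held a pair of facing units, GAANNTTC or TTCNNGAA, the exception being Dnajb1. Both forms read the same on either strand, and matches that shared a unit were counted separately. A gene can have more than 1 entry, and by gene the same pair was found for 14.55% of 27025 genes. By entry it was found in 7 of the 10 entries of the members and in 12.8% of all 32851 entries. The member entries without it were those of Dnajb1 and 1 of the 2 entries of Hspd1. In a row, 3 alternating units (GAANNTTCNNGAA or TTCNNGAANNTTC) were found for 2 members, Hspd1 and Hspe1, and for 0.514% of all genes. These genes, which encode the mitochondrial chaperonin and its lid, lie head to head on chromosome 1 and share the same 30 bases, read from opposite strands. The stretches that hold the matches are shown because 6 of the members hold such a match, with the matched units in capitals. Their starts are those of the RefSeq entries, while the gene coordinates given below are from GENCODE. By GENCODE, Hspd1 starts at 55088243 on the minus strand, so its stretch lies inside the gene. The Hspd1 entry nearer to that start held no match. Most of the Hsph1 stretch also lies inside the gene, which by GENCODE starts at 149636376.
Hspd1 promoter, minus strand, chr1:55088053-55088082: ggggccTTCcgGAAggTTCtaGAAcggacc
Hspe1 promoter, plus strand, chr1:55088053-55088082: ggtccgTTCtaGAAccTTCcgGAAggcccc
Hspb1 promoter, plus strand, chr5:135887801-135887830: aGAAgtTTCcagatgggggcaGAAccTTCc
Hsph1 promoter, minus strand, chr5:149636352-149636379: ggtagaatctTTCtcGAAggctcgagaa
Hspa1b promoter, minus strand, chr17:34959325-34959352: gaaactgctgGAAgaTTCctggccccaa
Hspa1a promoter, minus strand, chr17:34972243-34972270: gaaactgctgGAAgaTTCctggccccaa
The stretches printed for Hspa1a and Hspa1b were the same base for base. A match describes these letters only, and binding of HSF1 was not measured.

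Levels are given in CPM, estimated counts scaled with TMM factors to a common total of 1000000, and groups were compared with edgeR's quasi-likelihood test over the 12849 genes past its expression filter. All 10 members passed the filter, and after Benjamini-Hochberg adjustment 0 of them were called at 0.1 by edgeR, as were 0% of all genes. The smallest adjusted p was 0.439 over all genes and 0.812 among the members. By sign, 7 members were higher and 3 lower with scopolamine, and their median log2 fold change was 0.33 beside -0.011 for all genes tested. Without scopolamine replicate 4 the median of the members turned to -0.015, beside -0.022 for all genes. At an unadjusted p under 0.05 there were 3 members on the lower side, Hsp90aa1, Hsp90ab1 and Hspe1, where 2.66% of all genes stood, and 2 on the higher side, Hspa1a and Dnajb1, where 3.33% stood. With DESeq2, the tool that the authors used, 1.35% of the genes given an adjusted p were under 0.1 (144 higher and 49 lower) and 0 members were, the smallest member value being 0.251 for Dnajb1.

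The library totals of the groups did not overlap, at 14343362 to 20857433 estimated counts with scopolamine and 25769940 to 41428916 in sham, so that effects of depth and of treatment cannot be told apart. Sham replicates 1 and 3 were amplified from 200 pg of RNA with 15 cycles and the other 6 libraries from 1000 pg with 10 cycles. The summed level of 10 tuft cell markers, such as Dclk1, Trpm5 and Pou2f3, was 12794 to 21793 CPM with scopolamine and 16154 to 18712 CPM in sham, so the markers of the labelled cell type were abundant in all libraries. Transcripts used as markers of other epithelial cells were also counted, and whether they came from such cells or from the sorted tuft cells cannot be told apart here. The summed level of 10 enterocyte markers was 4019 to 7428 CPM with scopolamine and 3266 to 7397 CPM in sham, and it was highest in scopolamine replicates 2 and 3 and sham replicate 1. The summed level of 6 Paneth cell markers was 1397 CPM in scopolamine replicate 4 and 39.8 to 173 CPM elsewhere. Goblet cell markers summed to 677 to 3511 CPM with scopolamine and 333 to 1347 CPM in sham, and enteroendocrine markers to 409 to 1095 CPM and 178 to 1150 CPM. Although these sums overlapped, most of the single markers of these 4 types had a positive sign with scopolamine, 9 of 10 tested for enterocytes (median log2 fold change 1.56), 7 of 7 for goblet cells (1.17), 6 of 6 for Paneth cells (2.76) and 7 of 9 for enteroendocrine cells (0.86), while 9 of 10 tuft cell markers (-0.14) and 6 of 6 stem cell markers (-0.16) had a negative sign. The stem cell markers summed to 164 to 277 CPM with scopolamine and 205 to 297 CPM in sham. The part of these transcripts in the chaperone values was not tested. None of the listed markers of these types had an adjusted p under 0.1 in edgeR, and with DESeq2 the enterocyte marker Anpep did (adjusted p = 0.0395). Fewer cells of a type and less RNA per cell cannot be told apart in such bulk samples.

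**Figure D1:**
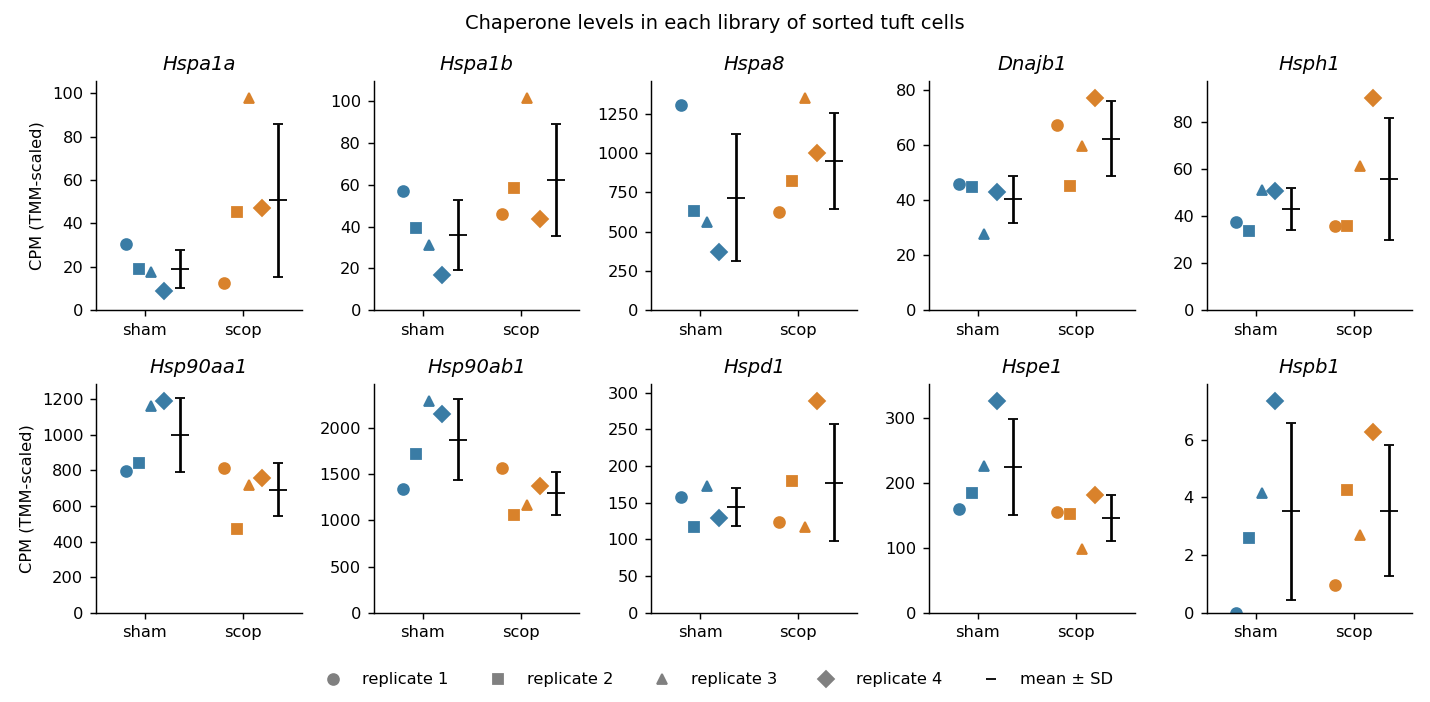
Level of each chaperone gene in each library, in TMM-scaled CPM on a linear axis from 0, for sham (blue) and scopolamine (orange), with a marker shape for each replicate and a bar for the mean ± SD (n = 4). The ranges of the groups overlap for all 10 genes, scopolamine replicate 3 is highest for Hspa1a, Hspa1b and Hspa8, and sham replicates 3 and 4 lie at the top for Hsp90aa1 and Hsp90ab1.

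Hspa1a and Hspa1b encode the inducible HSP70, the ATP-driven chaperone that classically marks a heat shock response. Hspa1a (chromosome 17 from 34969190 to 34972156 of GRCm38, minus strand) was at 12.5, 45.2, 97.8 and 47.2 CPM in scopolamine replicates 1 to 4 and at 30.4, 19.2, 17.7 and 8.81 CPM in sham replicates 1 to 4. Of the scopolamine mice 3 exceeded every sham mouse, while replicate 1 fell within the sham range. The means were 50.7 ± 35.2 CPM (SD, n = 4) and 19.0 ± 8.85 CPM (SD, n = 4), and the log2 fold change was 1.41 (standard error 0.55). The edgeR p was 0.0261 unadjusted and 0.812 after Benjamini-Hochberg adjustment.

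Hspa1b (chromosome 17 from 34956436 to 34959238, minus strand), the neighbouring copy, was at 45.9, 58.5, 101 and 43.4 CPM with scopolamine and 56.9, 39.2, 31.1 and 16.7 CPM in sham. Here sham replicate 1 was above scopolamine replicates 1 and 4, and the other sham mice were below all scopolamine mice. The log2 fold change was 0.79 (standard error 0.38, unadjusted p = 0.0649 in edgeR). Hspa1a and Hspa1b are near-identical copies: 63.8% of the 31-base words in the Hspa1a transcripts also occur in those of Hspa1b, and 67.7% the other way round, so the division of reads between them is an estimate. Hspa1a took 34.8, 32.8, 36.3 and 34.5% of the pair's count in sham, a narrow range, and 21.4, 43.6, 49.1 and 52.1% with scopolamine, a wide one. Hspa1a also overlaps Gm20481 on the opposite strand, which was given at most 1 count in any library.

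Counted together, the HSP70 pair was at 58.4, 104, 199 and 90.6 CPM with scopolamine and 87.2, 58.3, 48.8 and 25.5 CPM in sham. The lowest and highest of the 8 libraries, sham replicate 4 and scopolamine replicate 3, lay 7.81-fold apart, and the range within scopolamine (3.41-fold) was about as wide as that within sham (3.42-fold). The log2 fold change of the pair fitted as 1 gene was 1.04 (standard error 0.42, unadjusted p = 0.0304, edgeR adjusted p = 0.813 by Benjamini-Hochberg). Leaving out each mouse in turn, the log2 fold change ran from 0.88 to 1.73 for Hspa1a and from 0.45 to 1.10 for Hspa1b, both lowest without scopolamine replicate 3. With the letter of the mouse ID as a covariate it was 1.20 for Hspa1a and 0.43 for Hspa1b, with unadjusted p of 0.0707 and 0.275 in edgeR. With amplification cycles as a covariate it was 1.86 and 1.16.

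Hspa8, the constitutive HSC70 that folds new proteins and uncoats clathrin vesicles, was at 628, 822, 1352 and 999 CPM with scopolamine and 1305, 635, 558 and 371 CPM in sham (chromosome 9 from 40800984 to 40810087, plus strand). Sham replicate 1 was the second highest of the 8 libraries, and the other sham mice were lower than or close to the lowest scopolamine mouse. The means were 950 ± 308 CPM (SD, n = 4) and 717 ± 407 CPM (SD, n = 4), and the log2 fold change was 0.41 (standard error 0.36, edgeR adjusted p = 0.884 by Benjamini-Hochberg). The difference was smaller than the spread between mice and depended on single mice, at 0.86 without sham replicate 1 and at 0.19 without scopolamine replicate 3 or without sham replicate 4. With amplification cycles as a covariate it was 0.92, and with the letter of the mouse ID (M or N) 0.23.

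The read assignment to Hspa8 carries a limit. Its processed pseudogene Gm15459 holds 38.6% of the 31-base words of the Hspa8 transcripts, and it was given 4144, 6182, 8416 and 19694 counts with scopolamine and 10522, 10659, 18578 and 11162 counts in sham. These amount to between 30.6% and 93.3% of the Hspa8 count of the same library, highest in scopolamine replicate 4 and sham replicates 3 and 4. With the counts of both summed, Hspa8 was at 836, 1112, 1946 and 1932 CPM with scopolamine and 1704, 894, 1019 and 705 CPM in sham. The log2 fold change of the sum was 0.43 (standard error 0.32, edgeR adjusted p = 0.869 by Benjamini-Hochberg). Gm26825, which shares 1736 of the 4549 words of Hspa8, was not analysed here. The other genes analysed that share at least 1% of the words had at most 24 counts in any library.

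DNAJB1 (HSP40) brings clients to HSP70 and triggers its ATPase. Dnajb1 (chromosome 8 from 83608193 to 83612653, plus strand) was at 67.3, 45.1, 59.6 and 77.0 CPM with scopolamine and 45.9, 44.6, 27.6 and 42.8 CPM in sham. The groups overlapped by a single mouse, since scopolamine replicate 2 lay just under sham replicate 1. The means were 62.2 ± 13.5 CPM (SD, n = 4) and 40.2 ± 8.51 CPM (SD, n = 4), and the log2 fold change was 0.63 (standard error 0.24, unadjusted p = 0.0229, edgeR adjusted p = 0.812 by Benjamini-Hochberg). Of the higher members it varied least between mice. The SD of its log2 CPM within groups exceeded that of 42.0% of the 500 genes nearest to it in level, against 97.0% for Hspa1a and 97.6% for Hspa8.

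Hsph1 encodes HSP110, which exchanges the nucleotide on HSP70 and helps to dissolve aggregates. It was at 35.6, 35.8, 61.2 and 90.3 CPM with scopolamine and 37.5, 33.5, 51.0 and 50.7 CPM in sham (chromosome 5 from 149614287 to 149636376, minus strand). Its higher mean with scopolamine rested on replicates 3 and 4, and without replicate 4 the log2 fold change went from 0.37 (standard error 0.32) to 0.023.

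For both HSP90 genes the sign of the difference was negative. Hsp90ab1 encodes the constitutive HSP90-beta and Hsp90aa1 the more inducible HSP90-alpha, dimeric chaperones that hold kinases, steroid receptors and HSF1 itself in a poised state. Hsp90ab1 (chromosome 17 from 45567775 to 45573271, minus strand) was at 1569, 1054, 1166 and 1373 CPM with scopolamine and 1334, 1717, 2294 and 2145 CPM in sham. The groups overlapped through scopolamine replicates 1 and 4, which lay above sham replicate 1. Its means were 1291 ± 228 CPM (SD, n = 4) and 1872 ± 435 CPM (SD, n = 4), and the log2 fold change was -0.54 (standard error 0.20, unadjusted p = 0.0196, edgeR adjusted p = 0.812 by Benjamini-Hochberg).

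Hsp90aa1 (chromosome 12 from 110690605 to 110702728, minus strand) was at 812, 474, 720 and 760 CPM with scopolamine and 797, 841, 1163 and 1193 CPM in sham. Only scopolamine replicate 1 exceeded a sham mouse, and by a small margin. The means were 692 ± 150 CPM (SD, n = 4) and 998 ± 208 CPM (SD, n = 4), and the log2 fold change was -0.53 (standard error 0.20, unadjusted p = 0.0251, edgeR adjusted p = 0.812 by Benjamini-Hochberg). With the letter of the mouse ID as a covariate, the log2 fold changes were -0.37 for Hsp90aa1 and -0.33 for Hsp90ab1, with unadjusted p of 0.144 and 0.164 in edgeR. Over the runs that left out 1 mouse, the log2 fold change stayed between -0.64 and -0.40 for Hsp90aa1 and between -0.68 and -0.43 for Hsp90ab1. Hsp90aa1 made up a similar share of the HSP90 pair in all libraries, 31 to 38.2% with scopolamine and 32.9 to 37.4% in sham.

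HSPD1 (HSP60) forms the folding barrel of mitochondria and HSPE1 (HSP10) its lid, and the genes share 1 bidirectional promoter. Their log2 fold changes had opposite signs. Hspd1 (chromosome 1 from 55077835 to 55088243, minus strand) was at 123, 180, 117 and 289 CPM with scopolamine and 158, 117, 172 and 129 CPM in sham. Its log2 fold change was 0.30 (standard error 0.28, unadjusted p = 0.311 in edgeR) and turned to -0.052 without scopolamine replicate 4. Hspe1 (chromosome 1 from 55088132 to 55091307, plus strand) was at 155, 152, 97.3 and 182 CPM with scopolamine and 160, 183, 226 and 326 CPM in sham, and its log2 fold change was -0.61 (standard error 0.25, unadjusted p = 0.0348, edgeR adjusted p = 0.812 by Benjamini-Hochberg). For Hspe1 only scopolamine replicate 4 exceeded a sham mouse. Without sham replicate 4 its log2 fold change was -0.37 (unadjusted p = 0.134 in edgeR), and with the letter of the mouse ID as a covariate -0.34 (unadjusted p = 0.222 in edgeR). The count of Hspd1 divided by that of Hspe1 was 0.798, 1.18, 1.20 and 1.59 with scopolamine and 0.992, 0.640, 0.763 and 0.397 in sham, so sham replicate 1 was the sham mouse within the scopolamine range. The genes overlap at their starts on opposite strands.

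Hspb1, the small heat shock protein HSP27, was the rarest member, at 0.953, 4.27, 2.68 and 6.25 CPM with scopolamine and 0, 2.58, 4.14 and 7.35 CPM in sham (chromosome 5 from 135887919 to 135889563, plus strand). Sham replicate 1 had a count of 0, which allows a level of up to 0.114 CPM (3 counts, for counting error only). The log2 fold change was 0.0084 (standard error 1.22), and with 19 to 246 counts in the other libraries the mice of each group spread more widely than the groups differed. With the letter of the mouse ID as a covariate the value was 3.29 (unadjusted p = 0.190 in edgeR).

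**Figure D2:**
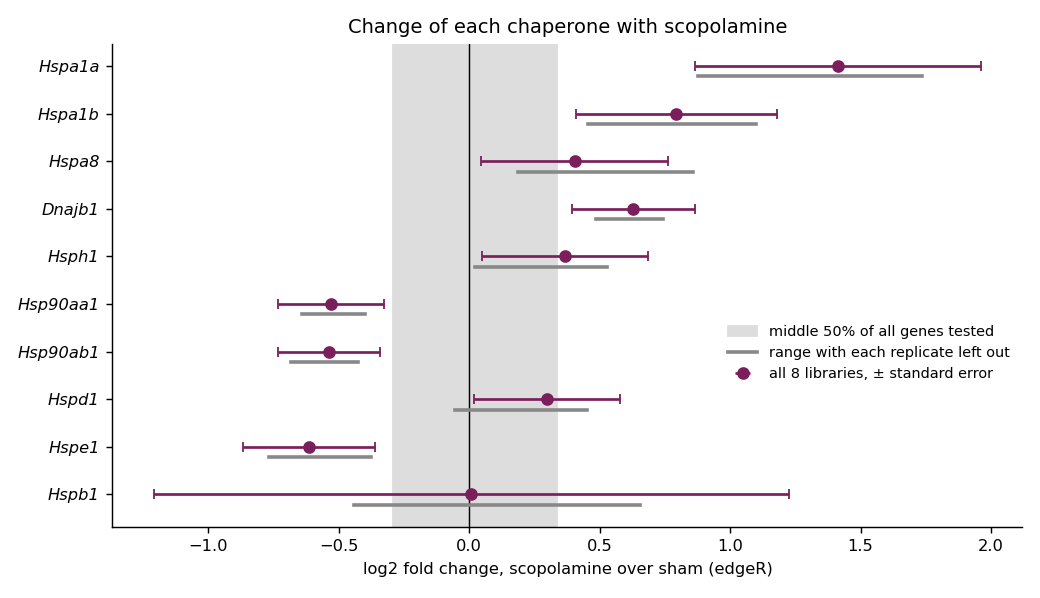
Log2 fold change of each chaperone with scopolamine over sham from edgeR (points, 4 against 4 mice) with its standard error, the range of the same value with each replicate left out in turn (grey lines), and the span of the middle 50% of all genes tested (grey band). Hspa1a, Hspa1b and Dnajb1 lie, with their standard errors, to the right of the band and Hsp90aa1, Hsp90ab1 and Hspe1 to its left, and the left-out ranges of Hspb1 and Hspd1 cross 0.

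No member separated the groups fully. With TMM scaling, 0 members had all scopolamine mice above all sham mice, where 1.92% of all genes did, and 0 had all below, where 1.95% did. With scaling by library size alone Dnajb1 separated on the higher side (1.98% of all genes) and Hsp90aa1 on the lower side (1.83%), so the overlap of these 2 genes rests on small differences in scaling. Much of the overlap came from sham replicate 1. Without that mouse, Hspa1b and Dnajb1 separated on the higher side (5.09% of all genes) and Hsp90aa1, Hsp90ab1 and Hspe1 on the lower side (5.07%), and 7 members had an unadjusted p under 0.05 in edgeR, where 9.1% of all genes did. The same 5 members separated without both libraries made from 200 pg, where 9.07% of all genes separated on the higher and 9.25% on the lower side. Without scopolamine replicate 1 there were 2 separated members, Hspa1a and Hsp90aa1, where 4.83% and 4.55% of all genes separated on their sides. Sham replicate 1 is also the sham library with the highest enterocyte marker sum (7397 CPM against 3266 to 3631 CPM in the other sham libraries), the highest lymphocyte marker sum (237 CPM against 54.1 to 79.9 CPM, in cells that had passed the EPC-high gate) and 1 of the 2 made from 200 pg. Sham replicate 1 and scopolamine replicate 1 were made from 3000 sorted cells and the other 6 libraries from 4000. The part of these features in the chaperone levels was not tested.

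The number of members with an unadjusted p under 0.05 depended on single mice. It was 5 over all 8 libraries (5.99% of all genes), 3 without scopolamine replicate 1 or 3, 2 without scopolamine replicate 2, 1 without sham replicate 4 and 0 without sham replicate 3. Of all genes 7.44% and 5.35%, 3.33%, 4.63% and 5.38% passed in these runs, in the same order. It was 5 without scopolamine replicate 4 (4.18% of all genes) and 4 without sham replicate 2 (6.09%). The letter that begins the mouse IDs, which the labels do not explain, is M for scopolamine replicates 1 to 3 and sham replicate 1 and N for the others. With that letter as a covariate 1 member, Dnajb1, had an unadjusted p under 0.05 in edgeR (5.3% of all genes). Within the M mice the HSP70 pair was at 58.4 to 199 CPM with scopolamine and 87.2 CPM in the sham mouse, and within the N mice at 90.6 CPM in the scopolamine mouse and 25.5 to 58.3 CPM in sham. The HSP90 pair was at 1528 to 2381 CPM with scopolamine and 2131 CPM in sham among M mice, and at 2133 CPM with scopolamine and 2558 to 3457 CPM in sham among N mice. So for both pairs the groups overlapped among M mice and were apart among N mice, with 1 mouse on 1 side in each.

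Because the log2 fold changes of the HSP70 and HSP90 members had opposite signs, their counts were also set against each other within each library, where scaling cancels. Numerator and denominator were thus chosen for their signs in these same libraries, so the separation of the ratio is a description and adds no support. The HSP70 pair amounted to 2.45, 6.79, 10.6 and 4.25% of the HSP90 pair with scopolamine and to 4.09, 2.28, 1.41 and 0.765% in sham. Scopolamine replicates 2, 3 and 4 lay above all sham mice, and replicate 1 lay between sham replicates 1 and 2. Hspa8 amounted to 26.4, 53.8, 71.6 and 46.8% of the HSP90 pair with scopolamine and to 61.2, 24.8, 16.2 and 11.1% in sham. Apart from sham replicate 1, all sham values were below the lowest scopolamine value. Summed over all 10 members, the level was 3491 CPM (SD 451, n = 4) in scopolamine mice and 4098 CPM (SD 401, n = 4) in sham mice.

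**Figure D3:**
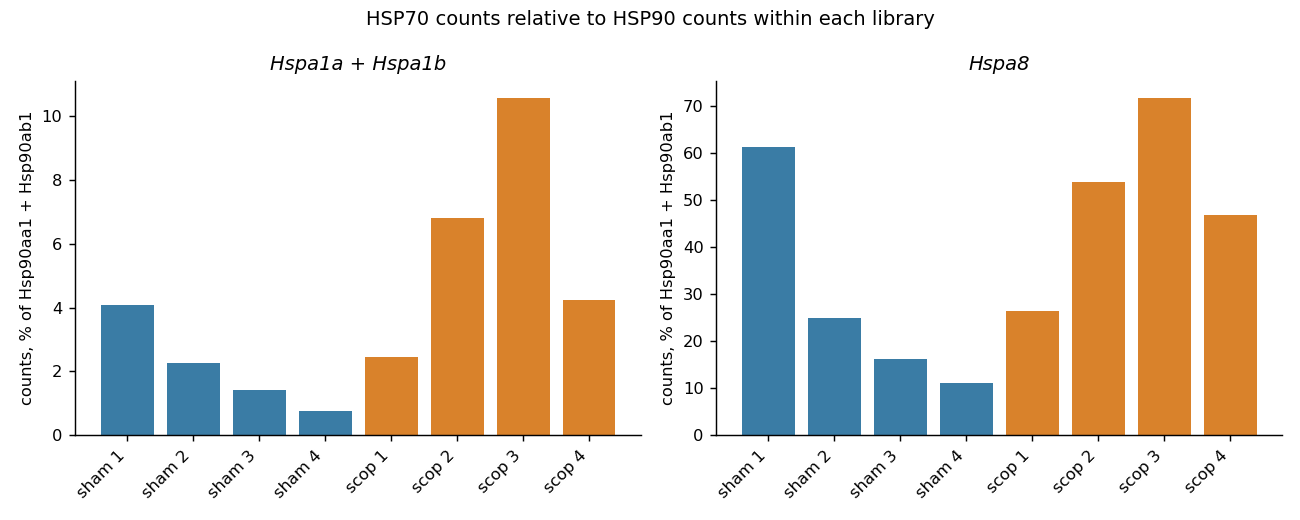
Counts of Hspa1a and Hspa1b summed (left) and of Hspa8 (right) as a percentage of the summed counts of Hsp90aa1 and Hsp90ab1, 1 bar per library, sham in blue and scopolamine in orange. For the HSP70 pair the bars run from 0.765% in sham replicate 4 to 10.6% in scopolamine replicate 3, and for Hspa8 sham replicate 1, at 61.2%, stands with the scopolamine mice.

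Levels between genes were compared per kilobase of the longest annotated transcript. On that scale Hsp90ab1 was the highest member, at 628 CPM per kb over the 8 libraries, above 99.5% of 21647 genes with a count and a known length. Hspa8 (264 CPM per kb), Hsp90aa1 (258 CPM per kb) and Hspe1 (192 CPM per kb) followed, then Hspd1 (66.4 CPM per kb). Lower levels were found for Hspa1b (17.5 CPM per kb), Dnajb1 (17.1 CPM per kb), Hspa1a (11.7 CPM per kb) and Hsph1 (10.4 CPM per kb), and Hspb1 was at 3.79 CPM per kb. The order of near neighbours, such as Hspa8 and Hsp90aa1, Hspa1b and Dnajb1, or Hspa1a and Hsph1, was not firm, since their levels differed by less than the SD between mice. Shared sequence adds to this. The level of Hspa8 depends on how reads were divided with Gm15459, since with the counts of that pseudogene added the means of Hspa8 were 1456 CPM with scopolamine and 1081 CPM in sham, in place of 950 and 717 CPM. Among the other members, 51.5% of the words of Hsp90aa1 and 53.1% of those of Hspd1 also occur in other transcripts, mostly pseudogenes, whose listed counts were at most 1.24% of the member's count. For Hspb1 55.4% of the words were shared, and its pseudogene Hsp25-ps1 reached 8.79% of its count in 1 library. For Hspe1 30.5% of the words were shared, and AC117239.2, which holds 334 of its 1444 words, was not analysed here. Hspa1l holds 12.1% of the words of Hspa1a and reached 7.23% of the Hspa1a count in 1 library.

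The wider chaperone network was described by 11 lists of 110 genes, immediate early genes included, of which 94 were tested, 53 higher and 41 lower by sign and 0.061 as the median log2 fold change, and 0 had an adjusted p under 0.1 in edgeR. At an unadjusted p under 0.05 stood 6 genes on the lower side and 3 on the higher side, where 2.66% and 3.33% of all genes stood. The groups did not overlap for 3 genes on the higher side, Hsf1, Hspa13 and Socs3, and 2 on the lower side, Hspb11 and Ubb, where 1.92% and 1.95% of all genes separated. Among the heat shock factors, Hsf1, the master regulator of the response, was at 35.9, 38.3, 39.8 and 37.3 CPM with scopolamine and 19.3, 22.4, 16.2 and 33.7 CPM in sham. Every scopolamine mouse was above every sham mouse, and the log2 fold change was 0.72 (standard error 0.27, unadjusted p = 0.0207, edgeR adjusted p = 0.812 by Benjamini-Hochberg). Hsbp1, which encodes a small protein that binds and restrains HSF1, had the smallest unadjusted p of the listed chaperone genes (0.0108) and a log2 fold change of -0.47 (standard error 0.15), at 235 to 329 CPM against 322 to 421 CPM.

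Among other HSP70 and HSP110 relatives, 1 of 5 tested genes lay on each side at an unadjusted p under 0.05. Hspa13, an HSP70 of the endoplasmic reticulum, was at 19.0, 8.86, 4.31 and 3.36 CPM with scopolamine and 0.872, 1.75, 0 and 0.867 CPM in sham, without overlap, and with DESeq2 it had an adjusted p of 0.098. Hspa4l, an HSP110 relative, was at 49.3 to 91.8 CPM and 75 to 119 CPM, and the log2 fold change was -0.61 (standard error 0.23). None of the 14 J proteins tested, partners of HSP70 like DNAJB1, nor of the 8 exchange factors and partners, Bag3 (0.40, standard error 0.33) included, reached an unadjusted p under 0.05. Of 13 HSP90 co-chaperones 1 did, Cacybp, whose log2 fold change was -0.46 (standard error 0.20), while 9 of the 13 had a positive sign.

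The 7 tested subunits of TRiC, the cytosolic chaperonin for actin and tubulin, had log2 fold changes between -0.20 and 0.12 (median -0.041). The 8 relatives in the endoplasmic reticulum had a median of 0.087, with Hspa5 (BiP) at 0.44 (standard error 0.30). In mitochondria 1 of 10 genes, the disaggregase Clpb, had an unadjusted p under 0.05 (log2 fold change -0.61, standard error 0.25). Of 9 small heat shock proteins besides Hspb1, 5 had no count in any library and 3 were tested. Hspb11, a gene named for this family whose product works in intraflagellar transport, was at 14.4 to 22.2 CPM with scopolamine and 26.2 to 44.6 CPM in sham, without overlap. The stress-inducible polyubiquitin gene Ubb was also lower without overlap, at 3249 to 4363 CPM against 4642 to 5200 CPM (log2 fold change -0.34, standard error 0.14, unadjusted p = 0.0307 in edgeR). The metallothionein Mt1 and the HSF target Zfand2a had log2 fold changes of 0.22 (standard error 0.57) and -0.96 (standard error 0.93).

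**Figure D4:**
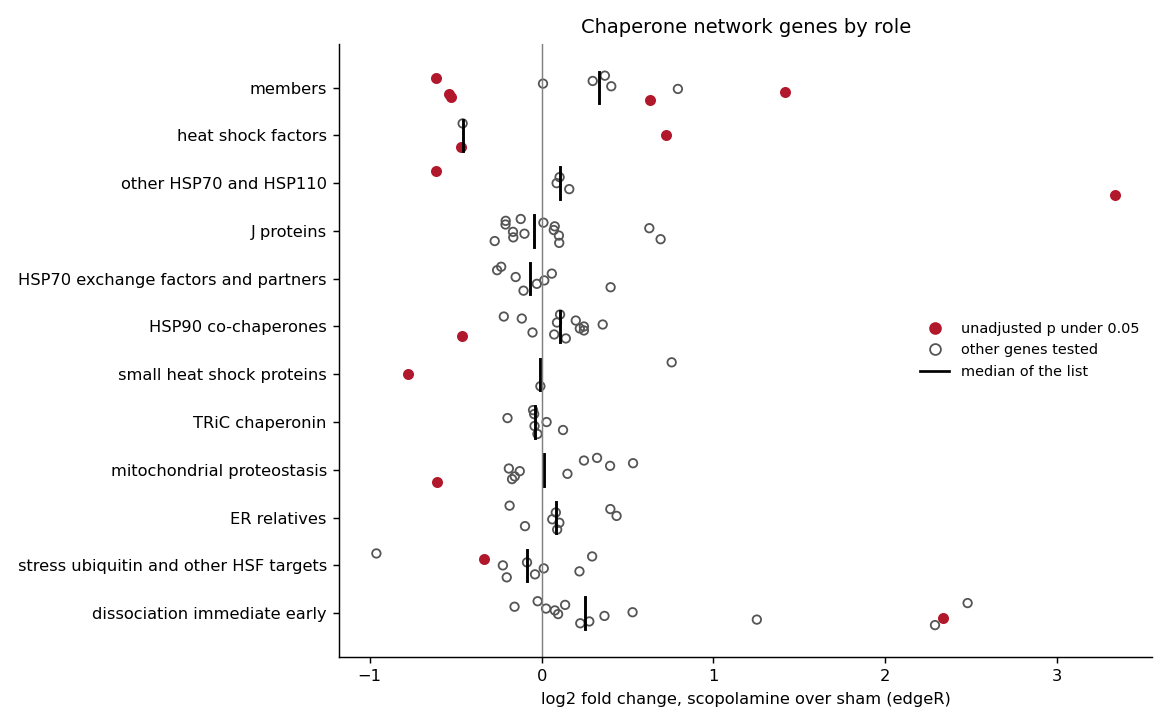
Log2 fold change with scopolamine over sham from edgeR for each tested gene of the 10 members and of the 11 lists of the chaperone network and of dissociation genes, 1 line per list, with filled points for an unadjusted p under 0.05 and a bar at the median of each list. No list has more than 1 filled point on a side except the members, and the points of the TRiC list lie between -0.20 and 0.12.

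Immediate early genes, which dissociation of tissue also raises, were read beside the members. Of 14 tested, 12 were higher and 2 lower by sign (median log2 fold change 0.25), and 1 had an unadjusted p under 0.05. That gene, Fos, was at 10.9, 80.9, 80.7 and 18.8 CPM with scopolamine and 23.3, 5.82, 1.61 and 7.23 CPM in sham. It was highest in scopolamine replicates 2 and 3 and next in sham replicate 1, the same libraries that had the highest enterocyte marker sums (7428, 7038 and 7397 CPM against 3266 to 4075 CPM in the others). Atf3 was at 5.97, 12.4, 16.2 and 4.88 CPM with scopolamine and 6.03, 0.511, 0.0992 and 1.46 CPM in sham, again highest in scopolamine replicates 3 and 2 and then sham replicate 1. For the HSP70 pair the order was scopolamine replicate 3, 2 and 4 and then sham replicate 1. Nr4a1 was removed by the filter in edgeR and had an adjusted p of 3.43e-04 with DESeq2, at 0.351, 9.75, 14.0 and 0.474 CPM with scopolamine and at most 0.120 CPM in sham. Socs3 did not overlap between the groups, at 5.17 to 10.9 CPM against 0.0379 to 4.75 CPM. The part of dissociation or of other cell types in the chaperone levels was not tested.

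The genes most like the summed HSP70 pair over the 8 libraries, by Pearson's r of log2 CPM, were Spint1, which encodes an epithelial protease inhibitor (0.98), Slc16a3, a lactate exporter (0.97), Ldha, which makes lactate (0.97), Il17re, a receptor for an epithelial cytokine (0.94), and Ttc22 (0.93). Ldha ran from 1889 to 3337 CPM and Spint1 from 240 to 450 CPM, while Il17re did not exceed 3.89 CPM. These are the highest of the correlations computed over all genes in 8 libraries that share their preparation and scaling, and they are given as a description.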

How the data were processed

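RNA of sorted ZSgreen-positive cells was amplified with the Clontech Ultra Low v4 kit and sequenced after Nextera XT preparation. Per the labels and the methods, the authors used bcl2fastq 2.20 and kallisto 0.44.0 on the GRCm38 transcriptome and summed transcripts to genes with tximport. The deposited values are estimated counts per gene, not normalized, and are whole numbers, so that rounding before the test changed 0 values. The annotation release and strand setting were not given in the sources used here. Reads from near-identical copies are divided by kallisto's model, and no molecular identifiers were used, so floors cover counting error only. A floor of 3 counts was 0.0730 to 0.212 CPM over the libraries.

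Groups came from the treatment label, and replicates were numbered in the order of the samples and do not pair mice. Each library is 1 mouse. No pair of libraries agreed within sampling noise (smallest chi-square per degree of freedom 67.5). RNA input and cycles were read from the study's source data.

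The main test was edgeR 4.0.16 in R 4.3.3 (TMM, filterByExpr, glmQLFTest, no covariate, Benjamini-Hochberg over 12849 genes, threshold 0.1). Its standard error is the log2 fold change over the square root of F. DESeq2 1.42.0 was an alternative, and the tests were tested on simulated data. Other alternatives were scaling by DESeq2's size factors or by library size, no expression filter, a minimum of 10 counts in each library, a threshold of 0.05, leaving out the 2 libraries from 200 pg, cycles or ID letter as a covariate, thinning to the smallest total, Hspa1a and Hspa1b summed, and each replicate left out. Summing Hspa8 with Gm15459 and the overlap of groups under other settings were added after the data were seen. The members, lists, markers and rules were chosen with earlier results of these data known. Named genes were all members, from each list those with an adjusted p under 0.1 or else up to 3 per direction with the smallest p, and the 5 genes most like the HSP70 pair. Coordinates are from GENCODE M21 on GRCm38 and promoters from RefSeq GRCm38.p6.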

Additional observations from a re-analysis of the deposited data

Results flagged for a closer look

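The Dnajb1 level of sham replicate 3, 27.6 CPM, lay far from the other sham mice, the nearest of which was at 42.8 CPM. The gap was 0.832 of the range of the sham group, above Dixon's critical value for 4 samples. It was the only flag among 20 groups looked at (10 genes in 2 groups), and chance flags about 1 in 20. Sham replicate 3 is 1 of the 2 libraries made from 200 pg, and the part of input in this value was not tested. Without that mouse the log2 fold change of Dnajb1 was 0.48 instead of 0.63, with an unadjusted p of 0.0557 in edgeR.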

How the results depend on the processing

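Over 20 alternatives, of which 19 gave a value for Hspa1a, Hspa1b and Hspb1, 0 members had an adjusted p under 0.1, with edgeR or DESeq2, and 8 of 10 members kept the sign of their log2 fold change. Hspd1 ran from -0.052 (without scopolamine replicate 4, reversed) to 0.45 with each replicate left out and reached 0.52 with cycles as a covariate. Hspb1, at 0.0084 in edgeR, reversed to -0.040 without a filter, -0.53 without the libraries from 200 pg, -0.49 with cycles as a covariate and -0.027 after thinning, was 3.29 with the ID letter as a covariate, and ran from -0.44 to 0.65 with each replicate left out, with reversals to -0.12 without scopolamine replicate 2, -0.44 without scopolamine replicate 4, -0.43 without sham replicate 1 and -0.12 without sham replicate 2. The median of the members ran from -0.015 (without scopolamine replicate 4, reversed) to 0.48. The number of members with an unadjusted p under 0.05 ran from 0 to 7 with each replicate left out (3.33 to 9.1% of all genes) and was 1 with the ID letter as a covariate (5.3%). The number not overlapping was 2 with library size alone (1.98% of all genes higher and 1.83% lower), 1 after thinning (1.95% of all genes higher and 1.88% lower), 5 without the libraries from 200 pg (9.07% of all genes higher and 9.25% lower) and 0 to 5 with each replicate left out (2.89 to 5.09% higher and 2.93 to 5.07% lower). Listed network genes with an adjusted p under 0.1 were 2 with DESeq2, Hspa13 and Nr4a1, where 1.35% of all genes were. Promoters with a match were 2 with the 3-unit motif instead of 6. The causes were not tested. No paired analysis was possible because the replicate numbers follow sample order and pair no mice.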
